A study of Mus musculus with 6 samples.

Results

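Cirbp and Rbm3, which encode the cold-inducible RNA-binding proteins CIRP and RBM3, were followed through 6 RNA-seq libraries of mouse blood progenitors. The pair was chosen by gene name, with their higher values under haloperidol already known, so their difference between the groups is described here and carries no test. They are 2 of the 38926 gene rows of the table, and both were among the 11436 genes with a mean of at least 1 FPKM. FPKM counts fragments per kilobase of gene, scaled for sequencing depth.

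CIRP and RBM3 are small proteins with an RNA recognition motif at the front and a glycine-rich tail, and both bind messenger RNAs and alter their stability and translation. Mild cooling raises their RNA and protein in most mammalian cells, and heat lowers them, opposite to the heat shock proteins. Low oxygen, ultraviolet light and other stresses act on CIRP as well, and stressed cells move it into cytoplasmic granules or release it to act on innate immune receptors.

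The study asked how haloperidol, a dopamine D2 receptor antagonist used as an antipsychotic, alters the RNA of LSK cells. LSK cells lack lineage markers and carry Sca1 and cKit, a gate that holds stem cells and multipotent progenitors. Wild-type C57BL/6 mice aged 8-12 weeks had received injections of haloperidol (3 libraries) or of the solvent DMSO (3 libraries) on 3 successive days, and the same agent stayed with the cells while they were sorted. The cells came from crushed, collagenase-digested femur and tibia, and cDNA was made with SMART-Seq v4 and cut into libraries with Nextera XT, which keeps no strand.

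Depth, recovered from the steps of the FPKM values, was 8523556 to 8871108 reads in the haloperidol libraries and 8621593 to 8969024 reads in the DMSO libraries. The gate genes were present at similar levels: Kit averaged 81.0 ± 9.78 FPKM with haloperidol and 87.8 ± 7.38 FPKM with DMSO, and Ly6a, which encodes Sca1, averaged 138 ± 10.5 FPKM with haloperidol and 136 ± 10.2 FPKM with DMSO (SD, n = 3 each). Haemoglobin RNA was also present in these lineage-negative sorts, with Hbb-bs at 1904 ± 265 FPKM with haloperidol and 1489 ± 188 FPKM with DMSO (SD, n = 3 each). The labels do not say that the libraries of a group came from separate mice. A p-value here therefore sets the group difference only against the scatter of these samples, and that scatter may be technical. Nor is it said that sorting and sequencing of both groups shared a day, and a batch of that kind and the treatment cannot be told apart.

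Cirbp lies on mouse chromosome 10 at chr10:80165985-80172786, plus strand, in GRCm38 (ENSMUSG00000045193.13). RefSeq gives it a pair of promoter windows, and one is shown because it holds the letters of the mild-cold response element, an 8-base sequence described in the mouse gene as the site through which cooling acts. The window covers 250 bases before to 50 bases after a RefSeq start at chr10:80167589-80167888, plus strand, in GRCm38.p6, with capitals for that element and for the CCAAT boxes.
Cirbp promoter: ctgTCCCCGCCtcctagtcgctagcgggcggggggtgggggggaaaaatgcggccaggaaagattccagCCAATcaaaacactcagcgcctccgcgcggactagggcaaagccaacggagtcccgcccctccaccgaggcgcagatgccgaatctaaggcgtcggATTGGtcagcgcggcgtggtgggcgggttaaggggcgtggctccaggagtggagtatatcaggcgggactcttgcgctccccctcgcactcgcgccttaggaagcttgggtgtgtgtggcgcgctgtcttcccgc
The element, TCCCCGCC, starts 247 bases before the start site, and with both strands searched 5.38% of 32851 RefSeq promoter windows of this length hold it. GC boxes (GGGCGG), the usual letters for Sp1, occur 3 times in the window and in 35.7% of all windows. CCAAT occurs 2 times and in 37.4% of windows. The heat shock letters GAANNTTC or TTCNNGAA (15.1% of windows) and the cyclic AMP element TGACGTCA (1.79% of windows) are not in this window. The window of the other start, at chr10:80167921-80168220, has 4 GC boxes and holds neither the mild-cold element nor CCAAT. None of the matches overlap, and a match is a description of letters only.

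Cirbp was the higher of the pair under haloperidol, per length. It had 152, 138 and 138 FPKM in the haloperidol libraries, against 49.7, 46.9 and 44.7 FPKM in the DMSO libraries. These values rest on 3402, 3191 and 3201 reads with haloperidol and on 1154, 1060 and 1049 reads with DMSO. All 3 haloperidol libraries lay far above all 3 DMSO libraries, and the lowest haloperidol level was 2.77 times the highest DMSO level. The mean level was 143 ± 8.05 FPKM with haloperidol and 47.1 ± 2.52 FPKM with DMSO (SD, n = 3 each), a ratio of 3.03 and a difference of 1.58 in log2(FPKM + 1).

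Rbm3 lies on the X chromosome at chrX:8138975-8145880, minus strand, in GRCm38 (ENSMUSG00000031167.16). It had 91.8, 86.9 and 86.5 FPKM in the haloperidol libraries, against 51.5, 57.0 and 49.5 FPKM in the DMSO libraries. Its read numbers were 3711, 3628 and 3618 with haloperidol and 2157, 2327 and 2098 with DMSO. The groups were again separate, with the lowest haloperidol level at 1.52 times the highest DMSO level. The mean level was 88.4 ± 2.98 FPKM with haloperidol and 52.7 ± 3.89 FPKM with DMSO (SD, n = 3 each), a ratio of 1.68 and a difference of 0.74 in log2(FPKM + 1). Every haloperidol library exceeded every DMSO library in 21% of all tested genes, and since both members were known to be higher, nothing is read from their doing so.

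**Figure D1:**
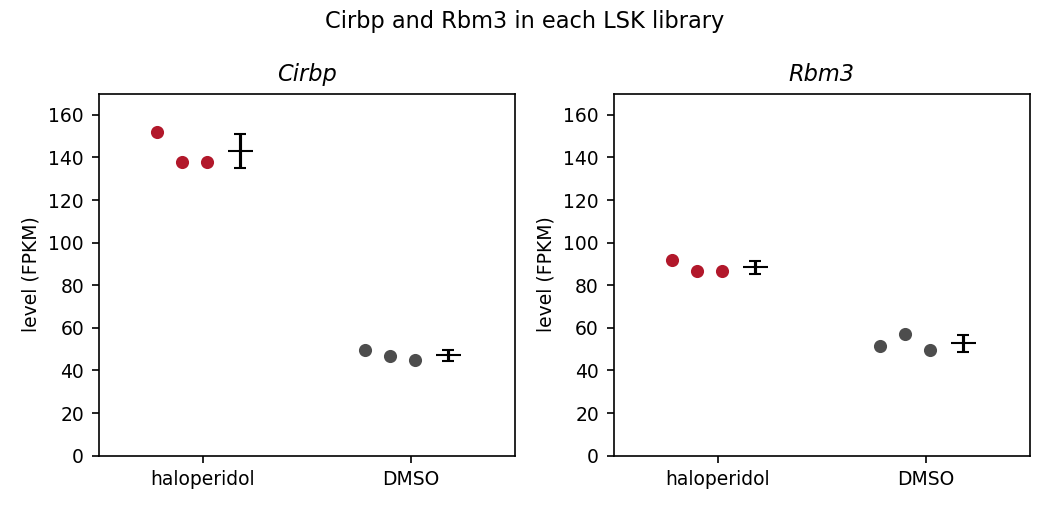
Level in FPKM of Cirbp (left panel) and Rbm3 (right panel) in each library, with haloperidol left of DMSO; points are libraries and the bars show mean and SD (n = 3 each). Cirbp lies at 138 to 152 FPKM with haloperidol and 44.7 to 49.7 FPKM with DMSO, and Rbm3 at 86.5 to 91.8 FPKM with haloperidol and 49.5 to 57.0 FPKM with DMSO.

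Among all tested genes, the difference of Cirbp ranked 16 of 11436 and that of Rbm3 ranked 190, counted from the largest rise. Cirbp was above 95.7% of tested genes in mean FPKM with haloperidol and above 84.9% with DMSO. Rbm3 was above 92.1% of tested genes with haloperidol and above 86.5% with DMSO. Both were thus well-expressed genes in either group, with the larger shift in place for Cirbp.

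The spread between libraries of a group was small beside these differences. For Cirbp the coefficient of variation was 5.64% with haloperidol and 5.36% with DMSO, where counting error alone gives 1.75% with haloperidol and 3.03% with DMSO. For Rbm3 it was 3.38% with haloperidol and 7.39% with DMSO, where counting error gives 1.65% with haloperidol and 2.13% with DMSO. The spread was therefore larger than counting error in each group, and it was largest for Rbm3 in DMSO, where replicate 2 stood above the others.

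The balance between the pair differed by group. The level of Rbm3 divided by that of Cirbp was 0.605, 0.630 and 0.626 in the haloperidol libraries, against 1.04, 1.22 and 1.11 in the DMSO libraries, both as FPKM. In DMSO the levels of the pair were close, and the lowest Rbm3 level, 49.5 FPKM, was below the highest Cirbp level, 49.7 FPKM. Summed over the pair, the level was 244, 225 and 224 FPKM with haloperidol and 101, 104 and 94.2 FPKM with DMSO.

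Which of the pair was higher under haloperidol depends on the length used. The deposited FPKM divide by 2604 bases for Cirbp and 4698 bases for Rbm3, the lengths of all annotated exons merged (GENCODE M21). Cirbp has 7 annotated transcripts, 2 of them coding and 4 with a retained intron, and Rbm3 has 11, 6 of them coding and 2 subject to nonsense-mediated decay. Per kilobase of a single coding transcript, of 1321 bases for Cirbp and 1152 bases for Rbm3, Cirbp had 2575, 2416 and 2423 reads in the haloperidol libraries and 874, 802 and 794 reads in the DMSO libraries. On that scale Rbm3 had 3221, 3149 and 3141 reads in the haloperidol libraries and 1872, 2020 and 1821 reads in the DMSO libraries, above Cirbp in every library. With a longer Rbm3 transcript of 2792 bases, Rbm3 had 1329, 1299 and 1296 reads with haloperidol, below Cirbp, and 773, 833 and 751 reads with DMSO. Differences between the groups within a gene are not touched by this choice, since the same length divides all 6 libraries.

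The pair share no long exact run of bases, which bears on the placing of reads and does not measure how alike the genes are. The longest run of bases shared by those transcripts, of 1321 and 1152 bases, was the 11 bases GCTATGAATGG. Of the 50-base stretches of Cirbp transcripts, 0 of 2693 occurred in another annotated gene. For Rbm3, 488 of 5024 such stretches (9.71%) did, most often in Rbm3-ps (315 stretches) and Gm10156 (255 stretches), so part of the Rbm3 count is uncertain where multiply placed reads were dropped or split. Rbm3 also shares 94 exon bases with an antisense gene, Rbm3os, listed as 2900002K06Rik, whose reads cannot be told apart there in a library without strand. That gene had 0.359, 0.695 and 0.694 FPKM in the haloperidol libraries, against 1.62, 0.830 and 1.37 FPKM in the DMSO libraries, and was below the level needed for the test.

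Cirbp and Rbm3 had larger differences than any other tested gene of the RNA-binding motif (RBM) family, few of which passed the test. Of 41 other family rows, 32 reached a mean of 1 FPKM. With limma on log2(FPKM + 1) and a Benjamini-Hochberg adjusted p threshold of 0.05, 2 of the 32 were higher with haloperidol (6.25%), beside 11.5% of all 11436 tested genes. Lower were 4 of the 32 (12.5%), beside 13% of all tested genes, so neither share was above the background. The median difference of the 32 was -0.02 in log2(FPKM + 1), and that of all tested genes was 0.00.

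Of the 4 family members that fell, Rbm5 and Rbm38 fell the most. Rbm5, a splicing regulator of apoptosis genes, had 10.2, 9.78 and 9.91 FPKM in the haloperidol libraries, against 16.6, 15.3 and 17.2 FPKM in the DMSO libraries (log2 difference -0.66 ± 0.07 SE, limma adjusted p = 0.000405). Rbm38, a p53 target that binds and stabilises messenger RNAs, had 7.09, 5.88 and 6.57 FPKM with haloperidol, against 11.6, 10.4 and 9.35 FPKM with DMSO (-0.60 ± 0.10 SE, limma adjusted p = 0.00324). In both genes every haloperidol library lay below every DMSO library, as in 22.1% of all tested genes. Rbm14, a paraspeckle protein, averaged 31.0 ± 1.93 FPKM with haloperidol and 37.9 ± 0.913 FPKM with DMSO (SD, n = 3 each; limma adjusted p = 0.0108). Rbm43 averaged 32.8 ± 3.09 FPKM with haloperidol and 40.2 ± 3.41 FPKM with DMSO (SD, n = 3 each; limma adjusted p = 0.0395).

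The 2 that rose did so by less than either cold-inducible gene. Rbm22, a spliceosome component, averaged 16.0 ± 0.694 FPKM with haloperidol and 13.2 ± 0.687 FPKM with DMSO (log2 difference 0.26, limma adjusted p = 0.023). Rbm28, a nucleolar protein of ribosome assembly, averaged 10.5 ± 0.575 FPKM with haloperidol and 8.84 ± 0.149 FPKM with DMSO (0.22, limma adjusted p = 0.049; SD, n = 3 each). The family's most abundant other members did not pass the test. These were Rbm7, an adaptor of the nuclear exosome, at 69.2 ± 0.517 FPKM with haloperidol and 66.1 ± 9.23 FPKM with DMSO, and Rbmxl1, whose reads may be split with its parent gene Rbmx, at 67.8 ± 0.842 FPKM with haloperidol and 69.4 ± 4.08 FPKM with DMSO. The call of Rbm28 ended without any 1 of the 6 libraries (limma adjusted p 0.058 to 0.124). That of Rbm43 ended without any 1 but haloperidol replicate 1 (0.0618 to 0.118), and that of Rbm22 without DMSO replicate 2 or 3 or haloperidol replicate 2 (0.0635 to 0.0792). Rbm7 passed without DMSO replicate 3 (limma adjusted p = 0.0435).

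**Figure D2:**
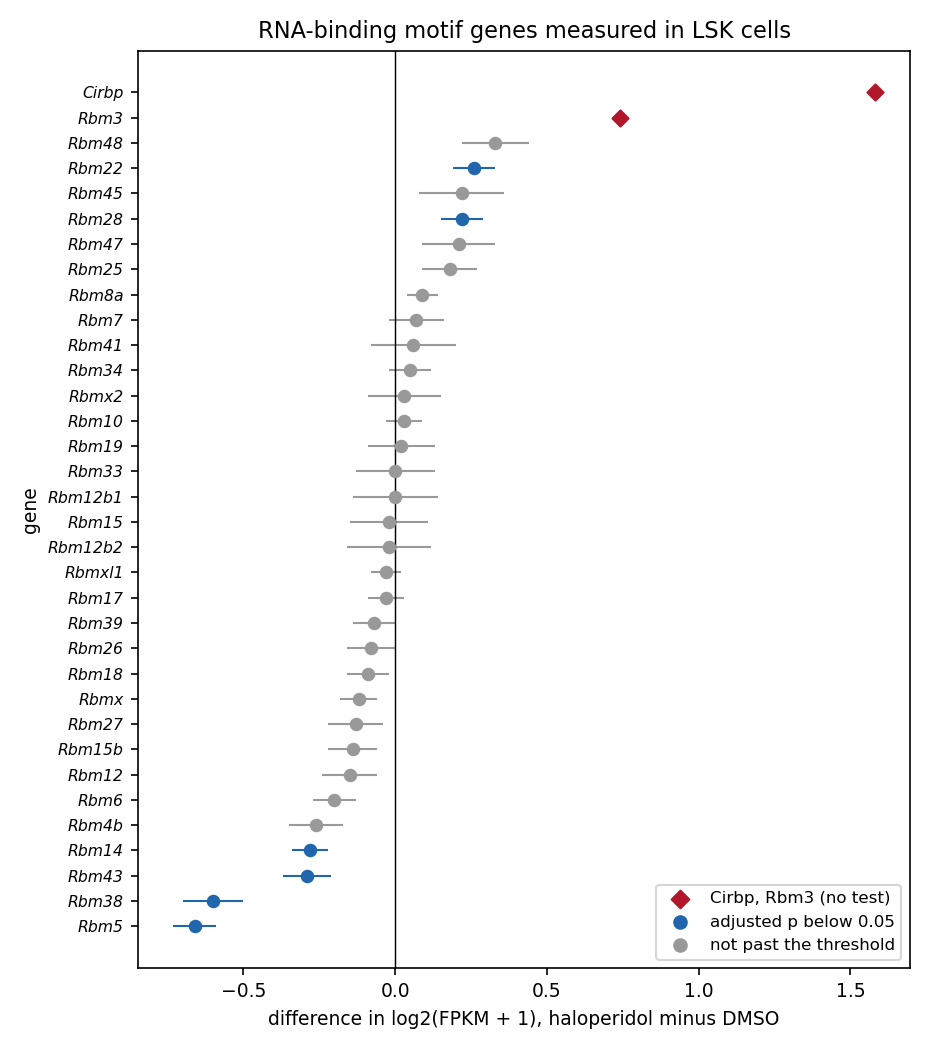
Difference in log2(FPKM + 1), haloperidol minus DMSO, of the tested RNA-binding motif genes, sorted by size, with SE bars from limma for the tested genes and none for Cirbp and Rbm3. Cirbp at 1.58 and Rbm3 at 0.74 are drawn untested, and the other 32 genes lie between -0.66 and 0.33.

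As a share of the family's summed FPKM, Cirbp held 19.1, 17.3 and 17.4% in the haloperidol libraries, against 7.28, 6.95 and 6.37% in the DMSO libraries. Rbm3 held 11.6, 10.9 and 10.9% with haloperidol, against 7.54, 8.46 and 7.06% with DMSO. The sum over the other family rows was 551, 571 and 569 FPKM with haloperidol and 582, 570 and 607 FPKM with DMSO, and its range overlapped between the groups.

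Heat shock genes, which move opposite to Cirbp and Rbm3 when temperature changes, were lower in part. Of 27 listed genes 23 were tested, and 10 were lower with haloperidol (43.5%, beside 13% of all tested genes). With limma 0 were higher, and at an unadjusted p under 0.05 and with voom the count was also 0. The list's median difference was -0.16 in log2(FPKM + 1), beside 0.00 for all tested genes. Its genes were listed with earlier results of these data known, so the count is a description.

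Hsph1, a large HSP70-type chaperone, had 7.38, 8.23 and 7.94 FPKM in the haloperidol libraries, against 19.3, 18.8 and 25.6 FPKM in the DMSO libraries (log2 difference -1.32 ± 0.11 SE, limma adjusted p = 0.000194). Chordc1, an HSP90 co-chaperone, had 33.3, 34.9 and 31.2 FPKM with haloperidol, against 65.4, 66.9 and 78.7 FPKM with DMSO (-1.06 ± 0.08 SE, limma adjusted p = 9.81e-05). Neither gene's groups overlapped, beside 22.1% of all tested genes that lay wholly lower with haloperidol, and the falls were of the order of the rise of Cirbp. Hspa8, the constitutive HSP70, averaged 450 ± 5.74 FPKM with haloperidol and 569 ± 15.5 FPKM with DMSO (log2 difference -0.34, limma adjusted p = 0.00128; SD, n = 3 each). Dnajb1, an HSP40 that feeds clients to HSP70, averaged 133 ± 4.26 FPKM with haloperidol and 161 ± 3.64 FPKM with DMSO (-0.27, limma adjusted p = 0.00417; SD, n = 3 each).

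The stress-inducible HSP70 genes did not pass the test. Hspa1a averaged 5.32 ± 1.17 FPKM with haloperidol and 6.01 ± 0.845 FPKM with DMSO (limma adjusted p = 0.449), and its near-identical copy Hspa1b, with which it may share reads, averaged 10.1 ± 1.63 FPKM with haloperidol and 9.83 ± 1.46 FPKM with DMSO (limma adjusted p = 0.897; SD, n = 3 each). Hsf1, the transcription factor of the heat shock response, averaged 29.9 ± 4.11 FPKM with haloperidol and 33.5 ± 1.65 FPKM with DMSO (limma adjusted p = 0.244; SD, n = 3 each). The most abundant genes of the list, Ubb (polyubiquitin, 2012 ± 62.7 FPKM with haloperidol and 1874 ± 67.8 FPKM with DMSO) and Hsp90ab1 (714 ± 17.5 FPKM with haloperidol and 735 ± 44.5 FPKM with DMSO), did not pass the test either. Not passing the test does not show that these levels were equal.

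Of 11 genes reported to regulate or modify the pair, 9 were tested, 2 were higher (22.2%, beside 11.5% of all tested genes) and 0 were lower by limma, by voom or at an unadjusted p under 0.05. The list's median difference was 0.09 in log2(FPKM + 1). Prmt1, which methylates arginines in the glycine-rich tail of CIRP, had 99.3, 101 and 101 FPKM in the haloperidol libraries, against 89.1, 92.3 and 78.6 FPKM in the DMSO libraries (log2 difference 0.22 ± 0.06 SE, limma adjusted p = 0.0387). Hnrnph1, reported in human cells to act on splicing of RBM3, had 34.0, 35.2 and 33.2 FPKM with haloperidol, against 29.8, 28.4 and 31.6 FPKM with DMSO (0.18 ± 0.06 SE, limma adjusted p = 0.0489). Both rises were slight. The groups did not overlap in either gene, beside 21% of all tested genes that lay wholly higher with haloperidol. The call of Prmt1 ended without any 1 library but DMSO replicate 2 (limma adjusted p 0.0655 to 0.0959), and that of Hnrnph1 without any 1 but DMSO replicate 3 (0.0655 to 0.161).

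The factors that act further upstream did not pass the test or were too low for it. Sp1, reported to bind the mild-cold response element of Cirbp, averaged 3.52 ± 0.416 FPKM with haloperidol and 3.26 ± 0.46 FPKM with DMSO (limma adjusted p = 0.634; SD, n = 3 each). Tnpo1, the import receptor that carries CIRP into the nucleus, averaged 7.78 ± 0.507 FPKM with haloperidol and 6.38 ± 1.05 FPKM with DMSO (limma adjusted p = 0.124; SD, n = 3 each). Without DMSO replicate 1 Tnpo1 passed (limma adjusted p = 0.0469), as it did with voom (adjusted p = 0.0335). Trpv4, a warmth-gated cation channel, had 0.941, 0.966 and 0.799 FPKM with haloperidol, against 0.550, 0.508 and 0.517 FPKM with DMSO, below the mean of 1 FPKM that the test required. Ntrk2, the BDNF receptor through which cooling raises Rbm3 in mouse neurons, was listed at 0 in every library.

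Genes whose RNAs CIRP or RBM3 is reported to bind moved in both directions. Of 9 listed, 7 were tested, 1 was higher (14.3%, beside 11.5% of all tested genes) and 2 were lower (28.6%, beside 13%). The median difference of the list was 0.06 and its mean -0.21 in log2(FPKM + 1), so the median and the mean differed in sign. Rpa2, a subunit of the single-strand DNA-binding complex whose RNA binds CIRP after stress, had 58.2, 62.7 and 60.9 FPKM in the haloperidol libraries, against 47.6, 48.9 and 52.4 FPKM in the DMSO libraries (log2 difference 0.28 ± 0.06 SE, limma adjusted p = 0.00817). Txn1, thioredoxin and the other classic stress target, averaged 322 ± 8.37 FPKM with haloperidol and 295 ± 5.59 FPKM with DMSO and missed the threshold (limma adjusted p = 0.0726; SD, n = 3 each). Clock, a circadian target of CIRP, had 0.886, 0.617 and 0.631 FPKM with haloperidol, against 0.480, 0.493 and 0.593 FPKM with DMSO, and was too low for the test.

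The targets that fell were the pair reported for RBM3 in human colon cells, where RBM3 raises their RNA stability. Ptgs2, the inducible prostaglandin synthase, had 68.1, 66.8 and 62.1 FPKM in the haloperidol libraries, against 163, 186 and 172 FPKM in the DMSO libraries (log2 difference -1.39 ± 0.06 SE, limma adjusted p = 1.27e-05). Vegfa, an angiogenic growth factor, had 29.3, 29.9 and 36.2 FPKM with haloperidol, against 64.4, 59.5 and 53.3 FPKM with DMSO (-0.87 ± 0.09 SE, limma adjusted p = 0.000554). In both genes every haloperidol library lay below every DMSO library, as in 22.1% of all tested genes. Both were thus lower in the group in which Rbm3 was higher, and a link between them and Rbm3 was not tested.

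The list for CIRP outside cells held 6 genes, of receptors on which it acts and of their co-receptors. All were tested, and 1 was higher (16.7%, beside 11.5% of all tested genes). By limma 0 were lower, 0 at an unadjusted p under 0.05 and 1 with voom. The list's median difference was 0.09 in log2(FPKM + 1). Trem1, an activating receptor of myeloid cells, had 47.2, 41.9 and 43.4 FPKM in the haloperidol libraries, against 31.4, 32.9 and 34.0 FPKM in the DMSO libraries (log2 difference 0.42 ± 0.06 SE, limma adjusted p = 0.00226). Its groups were separate, beside 21% of all tested genes that lay wholly higher with haloperidol. Tlr4, the endotoxin receptor, averaged 1.08 ± 0.285 FPKM with haloperidol and 1.5 ± 0.324 FPKM with DMSO (limma adjusted p = 0.255), and its co-receptor Cd14 averaged 88.5 ± 11.8 FPKM with haloperidol and 80.5 ± 6.45 FPKM with DMSO (limma adjusted p = 0.357; SD, n = 3 each).

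Stress granule genes, whose proteins share the granules that take up CIRP, gave shares near the background. All 22 were tested, 3 were higher (13.6%, beside 11.5% of all tested genes) and 2 were lower (9.09%, beside 13%), with a median difference of -0.03 and a mean of 0.03 in log2(FPKM + 1), which differ in sign. Those that rose included Ybx1, which encodes an RNA-binding protein of untranslated messenger RNAs (280, 278 and 271 FPKM with haloperidol, against 239, 238 and 211 FPKM with DMSO; limma adjusted p = 0.011), and the poly(A)-binding protein gene Pabpc1, at 107 ± 9.64 FPKM with haloperidol and 81.4 ± 14.6 FPKM with DMSO (limma adjusted p = 0.043; SD, n = 3 each). In Ybx1 the groups did not overlap, beside 21% of all tested genes that lay wholly higher with haloperidol, and in Pabpc1 they did. Tardbp, which encodes the splicing regulator TDP-43, was among those that fell, at 16.9 ± 0.312 FPKM with haloperidol and 21.2 ± 1.25 FPKM with DMSO (limma adjusted p = 0.00856; SD, n = 3 each). The most abundant other member, Hnrnpa1, averaged 212 ± 12.9 FPKM with haloperidol and 194 ± 13.1 FPKM with DMSO and did not pass the test (limma adjusted p = 0.18; SD, n = 3 each). The call of Pabpc1 ended without haloperidol replicate 1 or 3 or DMSO replicate 2 or 3 (limma adjusted p 0.114 to 0.122).

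Clock genes were included because CIRP shapes the amplitude of the circadian clock in mouse fibroblasts. Of 22 listed genes 18 were tested, 2 were higher (11.1%, beside 11.5% of all tested genes) and 6 were lower (33.3%, beside 13%), and the list's median of 0.03 and mean of -0.08 in log2(FPKM + 1) differ in sign. Arntl, which encodes BMAL1, the partner of CLOCK, had 4, 3.91 and 3.60 FPKM in the haloperidol libraries, against 6.53, 8.01 and 6.83 FPKM in the DMSO libraries (log2 difference -0.74 ± 0.09 SE, limma adjusted p = 0.00114). The output factor genes Hlf (15.9, 15.8 and 11.8 FPKM with haloperidol, against 34.2, 31.4 and 26.2 FPKM with DMSO; limma adjusted p = 0.00106) and Dbp (2.49, 2.71 and 2.55 FPKM with haloperidol, against 4.23, 4.85 and 4.63 FPKM with DMSO; limma adjusted p = 0.00214) fell as well. Bhlhe40, a repressor of the clock, averaged 42.3 ± 7.21 FPKM with haloperidol and 61.9 ± 3.87 FPKM with DMSO (limma adjusted p = 0.00862; SD, n = 3 each). In all 4 of these genes every haloperidol library lay below every DMSO library, beside 22.1% of all tested genes.

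The clock genes that rose were the repressors Cry1, at 20.7 ± 2.43 FPKM with haloperidol and 15.2 ± 1.14 FPKM with DMSO (log2 difference 0.41, limma adjusted p = 0.014), and Cry2, at 6.31 ± 0.549 FPKM with haloperidol and 4.90 ± 0.0429 FPKM with DMSO (0.31, limma adjusted p = 0.0313; SD, n = 3 each). Csnk1d, a kinase of the PER proteins and the most abundant clock gene, averaged 57.7 ± 1.79 FPKM with haloperidol and 60.5 ± 1.81 FPKM with DMSO and did not pass the test (limma adjusted p = 0.359; SD, n = 3 each). The call of Cry1 ended without DMSO replicate 1 or 2 (limma adjusted p 0.0504 to 0.0512), and that of Cry2 without any 1 library but haloperidol replicate 3 (0.0707 to 0.1). The hour at which the animals of each group were killed is not given in the sources used here.

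**Figure D3:**
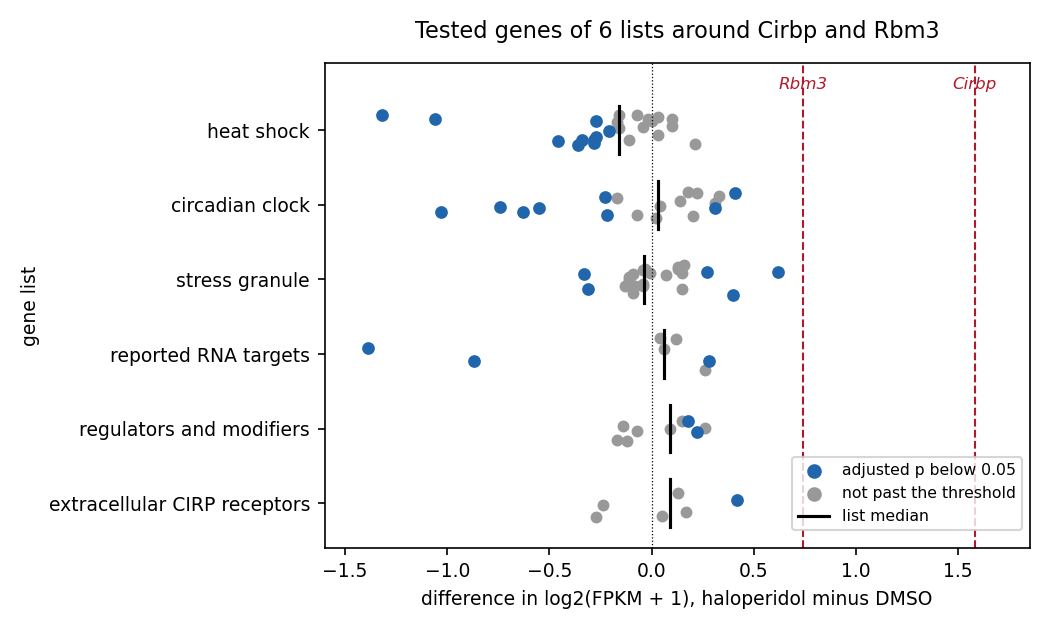
Difference in log2(FPKM + 1), haloperidol minus DMSO, of each tested gene in the 6 lists outside the RNA-binding motif family, coloured by whether the limma adjusted p is below 0.05, with a black bar at each list's median and dashed lines at Rbm3 (0.74) and Cirbp (1.58). No listed gene reaches Rbm3, and the lowest are Ptgs2 (-1.39) and Hsph1 (-1.32).

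The genes near Cirbp and Rbm3 did not share the size of their difference. In GRCm38, 6 annotated genes have some part within 50 kb of Cirbp and 5 were tested, of which 2 were lower (13% of all tested genes were) and the other 3, Stk11, Cbarp (listed as Dos) and Atp5d, did not pass the test (limma adjusted p 0.282 to 0.938). Distances run from the GENCODE start of each gene, which for Cirbp is not the RefSeq start of the promoter window. The uncharacterised gene 1600002K03Rik, whose start lies 7.0 kb beyond that of Cirbp, had 6.86, 9.12 and 8.61 FPKM in the haloperidol libraries, against 13.4, 12.6 and 11.6 FPKM in the DMSO libraries (log2 difference -0.56 ± 0.10 SE, limma adjusted p = 0.00626). Midn, which encodes a nuclear protein that takes short-lived proteins to the proteasome, averaged 2.97 ± 0.359 FPKM with haloperidol and 4.03 ± 0.261 FPKM with DMSO (-0.35 ± 0.10 SE, limma adjusted p = 0.0426; SD, n = 3 each), and its start lies 17.7 kb on the other side. Atp5d, a subunit of the mitochondrial ATP synthase and the most abundant neighbour, averaged 168 ± 8.49 FPKM with haloperidol and 159 ± 5.78 FPKM with DMSO (SD, n = 3 each). The call of Midn ended without any 1 of the 6 libraries (limma adjusted p 0.0607 to 0.121).

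Around Rbm3, 8 annotated genes have some part within 50 kb and 4 were tested, of which 1 was higher and 1 was lower, beside 11.5% higher and 13% lower of all tested genes. Wdr13, a WD-repeat protein gene 13 kb away, averaged 8.97 ± 0.793 FPKM with haloperidol and 7.05 ± 0.326 FPKM with DMSO (log2 difference 0.31 ± 0.08 SE, limma adjusted p = 0.0273; SD, n = 3 each). Tbc1d25, a RAB GTPase-activating protein gene 30.3 kb away, averaged 6.39 ± 0.362 FPKM with haloperidol and 8.39 ± 0.462 FPKM with DMSO (-0.35 ± 0.08 SE, limma adjusted p = 0.0138; SD, n = 3 each). The other tested neighbours, Was and Ebp, did not pass the test (limma adjusted p = 0.869 and 0.201). The call of Wdr13 ended without any 1 library but haloperidol replicate 1 (limma adjusted p 0.0585 to 0.082), and that of Tbc1d25 without DMSO replicate 2 (0.0568).

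**Figure D4:**
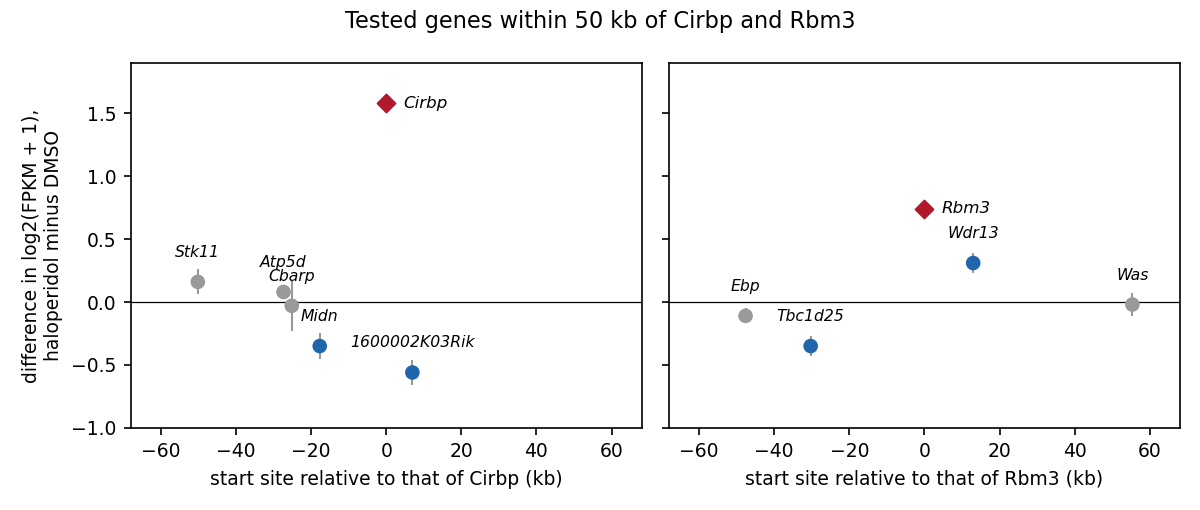
Difference in log2(FPKM + 1), haloperidol minus DMSO, of the tested genes with some part within 50 kb of Cirbp (left panel) and Rbm3 (right panel), against the distance of each gene's start site from that of the member in kb, with SE bars from limma and blue points for an adjusted p below 0.05. Cirbp (1.58) and Rbm3 (0.74) are drawn untested, and their tested neighbours lie between -0.56 and 0.31.

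The genes whose pattern was most like that of each member differed between the pair. That follows from the measure, which is not scaled and so depends on the size of each gene's difference. Likeness was the root mean square difference in log2(FPKM + 1) over the 6 libraries after each gene was centred on its own mean, computed for 10144 genes. Nearest to Cirbp were Cd68, a lysosomal protein of macrophages (0.110), Fkbp5, a glucocorticoid-induced co-chaperone (0.113), the helicase gene Dhx40 (0.126), the chemokine gene Ccl9 (0.144) and the RAB GTPase gene Rab44 (0.161). Cd68 averaged 44.9 ± 3.9 FPKM with haloperidol and 16.2 ± 0.987 FPKM with DMSO, Fkbp5 31.6 ± 1.11 FPKM with haloperidol and 11.7 ± 0.83 FPKM with DMSO, and Dhx40 10.7 ± 0.392 FPKM with haloperidol and 3.19 ± 0.254 FPKM with DMSO (SD, n = 3 each). These genes were picked for sharing the pattern, so their levels carry no test. In that order Rbm3 was number 92 for Cirbp (0.426).

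Nearest to Rbm3 were Hcst, a signalling adaptor of immune receptors (0.046), Palm, a membrane protein gene (0.049), the neutrophil granule protease gene Prtn3 (0.056), the small nucleolar RNA Snord53 (0.062) and Ap3s1, a subunit of a vesicle adaptor (0.067). Hcst averaged 78.8 ± 0.719 FPKM with haloperidol and 47.9 ± 2.43 FPKM with DMSO, Palm 23.5 ± 0.801 FPKM with haloperidol and 14.5 ± 1.61 FPKM with DMSO, and Prtn3 198 ± 16.9 FPKM with haloperidol and 117 ± 6.57 FPKM with DMSO (SD, n = 3 each). Snord53 rests on 2 reads in each haloperidol library and 1 read in each DMSO library. Cirbp was number 6353 in likeness to Rbm3, so each member's nearest genes were others with a rise of its own size.

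Markers of other cell types moved with the treatment in some lists. In these bulk samples, fewer cells of a type and less RNA per cell cannot be told apart. The calls in these lists stand beside 11.5% higher and 13% lower of all tested genes. Over 8 gate and progenitor genes the summed level was 1227 to 1268 FPKM with haloperidol and 1375 to 1431 FPKM with DMSO, with 1 of the 8 higher (Flt3) and 4 lower by limma, among them Cd34, Cd48 and Gata2. The gate genes Kit and Ly6a themselves did not pass the test. The 6 mast cell and basophil genes summed to 72.2 to 91.2 FPKM with haloperidol and 39.8 to 47.8 FPKM with DMSO. Both tested members, Cpa3 and Mcpt8, were higher and made up most of the sum. Of the members too low for the test, Fcer1a and Prss34 had higher means with haloperidol, and Cma1 and Tpsb2 had lower means. The groups overlapped in Prss34, Cma1 and Tpsb2. The 7 monocyte and macrophage genes summed to 59.6 to 68.3 FPKM with haloperidol and 32.6 to 37.0 FPKM with DMSO, with 1 of 5 tested, Cd68, higher. Cd68 alone separates the groups in that list: without it the sums were 21.7, 18.9 and 20.1 FPKM with haloperidol and 18.3, 21.0 and 17.3 FPKM with DMSO, which overlap. The 8 B cell genes summed to 23.5 to 26.2 FPKM with haloperidol and 37.7 to 40.9 FPKM with DMSO, with all 4 tested lower. Of these, Cd79a, Vpreb1 and Vpreb3 averaged 0.752, 0.613 and 0.353 FPKM with haloperidol and 2.22, 2.26 and 1.97 FPKM with DMSO. They reached the mean of 1 FPKM only through the DMSO libraries, a filter that favours lower calls, so nothing is read from their calls. Without the most abundant member, the groups still did not overlap in the mast cell and B cell lists. The mast cell sum without Cpa3 was mostly Mcpt8. The B cell sum without Cd79b was mostly Cd79a, Vpreb1 and Vpreb3, which rest on few reads. The summed ranges of the erythroid, neutrophil, T and NK cell, endothelial and stromal lists overlapped between the groups, and Cd8a and Bglap were at 0 in every library. Without Pecam1, though, the endothelial sums were 4.16, 5.02 and 5.01 FPKM with haloperidol and 6.76, 6.06 and 6.26 FPKM with DMSO. Without Cxcl12 the stromal sums were 2.13, 2.36 and 2.68 FPKM with haloperidol and 1.62, 1.38 and 1.78 FPKM with DMSO. Neither of those low sums overlapped between the groups. Emcn, 1 of the 2 tested endothelial genes, was lower (limma adjusted p = 0.036). Cirbp and Rbm3 are not markers of a cell type, and the part of these shifts in their levels was not tested.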

How the data were processed

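The authors deposited 1 table of FPKM values for 38926 genes, 1 column for each library, with 0 columns from other samples. Per the submitters' processing notes, the tools were bcl2fastq (version 2.19.1.403), TopHat2 (version 2.1.1), HTSeq (version 0.6.1) and DESeq2 (version 1.18.1), on build mm10. The annotation release and the way reads were assigned to genes were not given in the sources used here. Whole reads were recovered from the FPKM steps for 100.0% of the 20633 genes above 0, within 0.001 reads, with a common factor restored for 396 genes, and the scale between libraries matched size factors by the median of ratios. Recovered reads gave depths, counting error and 1 alternative. A count of 0 allows up to 3 reads of a library (counting error only). Chi-square per degree of freedom between libraries was 2.92 to 4.75 within groups, so no pair of libraries agreed within sampling noise.

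Genes with a mean of at least 1 FPKM (11436) were tested on log2(FPKM + 1), which understates changes of low genes, using limma (version 3.58.1, R version 4.3.3; prior variance trended on expression; two-sided; no covariate; Benjamini-Hochberg threshold 0.05); the test was tried on simulated data first. It called 1320 genes higher and 1487 lower. 

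The members and gene lists were chosen with earlier results of these data known. From each list the text names up to 4 risen and 4 fallen members with the smallest adjusted p and the 2 most abundant, some genes whatever their value, tested genes within 50 kb of a member and the 5 genes most like each member, leaving out predicted genes, clones, pseudogenes and symbols on more than 1 row; a few genes the rule names are not reported here. The table has no coordinates, so neighbours, transcripts and shared stretches come from GENCODE M21 (GRCm38); promoters are RefSeq, where 1 of the 2 members matched. Ciart is listed as Gm129 and Adgre1 as Emr1. Alternatives were another pseudocount, no filter, 2 scalings, a robust prior variance, a replicate block, each library left out, and, added after seeing the data, voom on recovered reads.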

Additional observations from a re-analysis of the deposited data

How the results depend on the processing

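The log2 difference of Cirbp stayed between 1.53 and 1.62, and that of Rbm3 between 0.70 and 0.80, over all 13 other settings. The scale was log2(FPKM + 1) except with the pseudocount of 0.1 and with voom, which works on reads. Of 806 comparisons of named tested genes with a setting, 0 reversed, 74 lost and 3 gained a call; with no library left out, the genes that lost calls included Cry2, Hnrnph1, Midn, Pabpc1, Prmt1, Rbm28, Rbm43, Snord53 and Wdr13, each under 1 to 5 settings. Genes called higher (1320) numbered 848 with no filter on low values and 815 to 957 with 1 library left out, 815 without DMSO replicate 2 and 869 without haloperidol replicate 1. With no filter, higher calls were 1 in the RBM family, 1 among clock genes and 0 among regulators, and lower calls 1 among stress granule genes; this setting tests more genes. Rescaling to a common sum gave 1, 1 and 0 higher calls in the same 3 lists, and it moved the median of all genes to -0.02 (log2). A robust prior variance gave 1 higher call in the RBM family and 1 among regulators, and a pseudocount of 0.1 gave 1 among regulators. Voom on recovered reads, chosen after seeing the data, gave 4 higher calls in the RBM family, 5 among clock genes and 2 among RNA targets, and 1 lower call among receptors; the cause was not tested. With 1 library left out, which leaves fewer samples, higher calls were 0 to 1 in the RBM family, 0 to 3 among clock genes and 0 to 1 among regulators, and lower calls were 1 to 2 among stress granule genes, 4 among clock genes and 9 to 10 among heat shock genes. With the replicate number as a block, 1208 genes were higher and 1344 lower, and the RBM family and the regulators had 1 higher call each. Deviations of same-numbered samples correlated at only 0.01, 0.05 and 0.02, so no shared deviation was seen. That does not settle whether the samples were handled in pairs. Depth limits genes such as Clock, Trpv4 and Rbm3os, which have a mean under 1 FPKM and rest on few reads. Since FPKM divides by length, a gene above 1 FPKM can rest on few reads too, as Snord53 did.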
